A study of Mus musculus with 18 samples.

Results

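The 6 libraries described here are inputs of sonicated mouse liver chromatin, sequenced without immunoprecipitation around sites bound by the clock transcription factors CLK and BMAL1. They were taken from the deposited profiles by their names, as the rows named input of sonicated chromatin, and make up 6 of the 18 libraries of the series. The series compared CLK chromatin immunoprecipitation (ChIP) on chromatin cut with micrococcal nuclease or by sonication, at 2 times of day. The input groups are ZT06 and ZT22, in hours after lights on, with 3 libraries each, and the CLK ChIP of the same sonicated livers is used for comparison. All animals were adult C57BL/6 mice aged 3 to 6 months, named WT in the titles, held in light and dark of equal length. Livers were fixed with formaldehyde and their nuclei sheared in a Bioruptor to inserts of about 150 to 300 bp. Whole liver was used, so the cell types of the liver cannot be told apart. Libraries carry the mouse numbers 28, 29 and 30 at each time. The submitters' design text speaks of the same mice without saying whether a number means 1 animal at both times. Whole livers were collected at each time, so livers were counted separately.

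CLK and BMAL1 form a dimer that binds E-box elements and drives the transcription of circadian genes, among them those of its own repressors. In mouse liver the binding of this dimer to DNA is known to rise during the light phase and to fall at night. As background, DNA at regulatory elements with few or loosely held nucleosomes breaks more easily on sonication than compact chromatin, and such elements can be over-represented in input libraries. Input is therefore the level against which a ChIP peak is read. No measurement of accessibility was used here.

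Each deposited value is a mean signal over sites at 1 position across a 3 kb region. The positions were taken as 10 bp apart, and the middle position as the middle of the peak. One set, called all sites below, covers all but 1 of the 3217 sites on the accompanying list by its name, and the other the top 400 sites. Neither the rule behind the top sites nor the scaling between libraries is stated in the sources at hand. On the list, 583 sites (18.1%, exact 95% interval 16.8 to 19.5%) were classed at transcription start sites and 717 (22.3%, 20.9 to 23.8%) as intergenic and more than 10 kb from a gene. The peaks had a median width of 309 bp. Another listed site lay over 300 and up to 1000 bp away for 8.46% of sites, and over 1000 and up to 1500 bp away for 2.92%. The surroundings of a site therefore contain some further sites.

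The depth behind the profiles was read from the steps between values. At the top sites, the signal times 400 was a whole multiple of 1 step in 100% of positions in each of the 6 libraries, within 0.1 of a step. Taking that step as 1 fragment, 12840 to 19360 fragments covered the middle position over all sites and 1636 to 2569 over the top sites. The exact 95% Poisson interval of the middle value was thereby 1.41 to 1.73% to either side over all sites and 3.89 to 4.88% over the top sites. These intervals cover counting error only. The step was smallest in the ZT22 library of mouse 29, at 0.568, and largest in the ZT06 library of mouse 30, at 0.949. Only if all libraries were scaled to the same total would this mean 1.67 times the depth, and the scaling is not stated. The most fragments at the middle were in the ZT06 library of mouse 28, 19360 over all sites against 18416 in the ZT22 library of mouse 29.

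The input rose at the middle of the sites in each of the 6 libraries. Over all sites, the mean signal within 100 bp of the middle, the centre, was 4.04, 3.70 and 3.82 at ZT06 in mice 28, 29 and 30. At least 1000 bp away, in the flanks, it was 3.13, 2.99 and 3.01. At ZT22 the centre was at 3.99, 3.32 and 3.47 and the flanks at 3.11, 2.78 and 2.84. Centre and flanks thus did not overlap within either time. The centre stood above the library's own flanks by 29.3, 23.7 and 26.8% at ZT06 and by 28.4, 19.1 and 22.5% at ZT22. The rise was smallest in the ZT22 library of mouse 29, the one with the smallest step. The log2 ratio of the centre to the flanks averaged 0.32 ± 0.02 (SE, n = 6). It was above 0 in 6 of 6 libraries by an exact sign-flip test, two-sided, with p = 0.031, which is the minimum for 6 libraries. The adjusted p was 0.0391 over the 10 tests of the input against its own flanks, and 0.115 over all 44 tests made here.

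The rise was larger than the unevenness of the flanks and than the counting error. Over all sites, single flank positions scattered by 1.95 to 3.84% (SD over positions), and the highest flank position of any library stood 8.35% above its flank mean. Every rise of the centre, at least 19.1%, exceeded this. The lower Poisson bound of the middle position lay above the flank mean in 6 of 6 libraries over all sites and in 5 of 6 over the top sites. The exception was the ZT22 library of mouse 29, with a middle value of 2.92 (2.80 to 3.05) against flanks at 2.85. Its centre over the full window was nonetheless 20.8% above the flanks. Flank positions of the top set scattered by 5.86 to 9.02%, so single positions there say little.

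**Figure D1:**
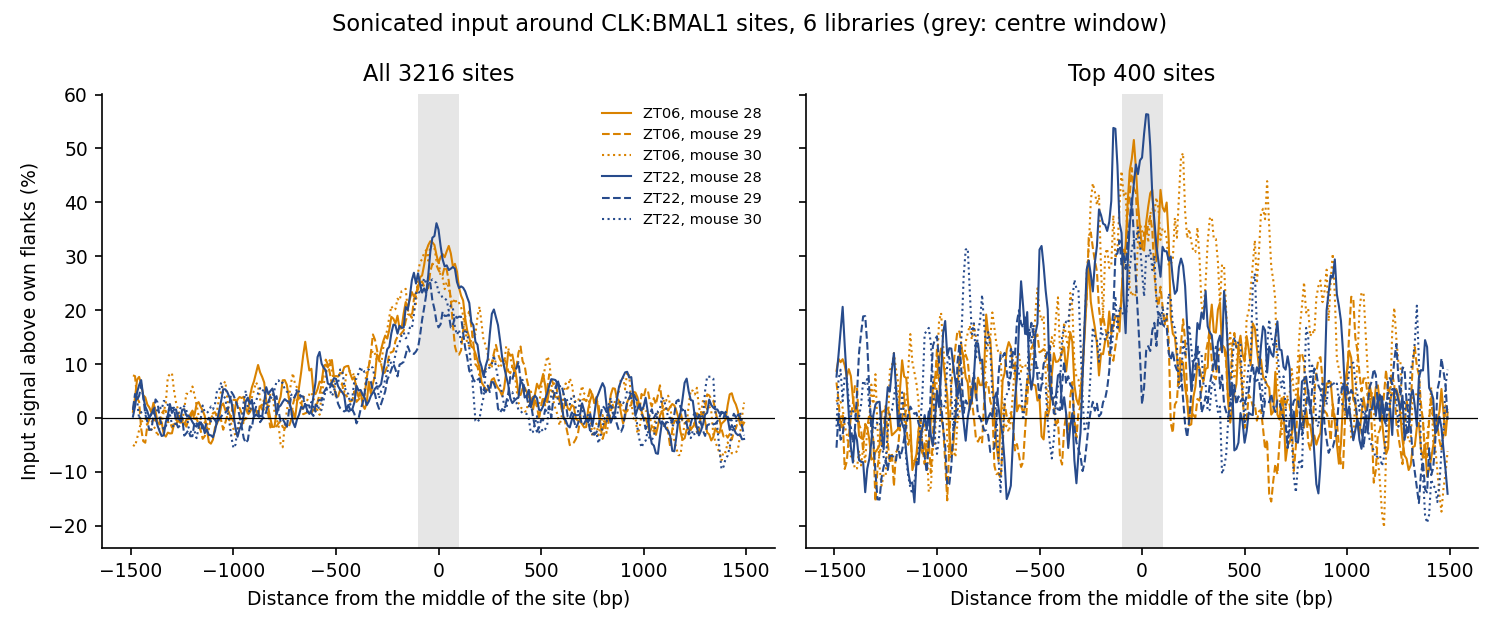
Input signal of the 6 sonicated libraries, in percent above the library's own flanks, against the distance from the middle of the site, for both sets of sites. Colour gives the time, line style the mouse number, and grey the centre window. All 6 lines rise in the middle, by 19.1 to 29.3% over all sites, and the lines of the top sites are rougher.

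The rise was broad and fell off gradually on both sides. Over all sites, the mean of the 6 libraries stood 28.3 ± 4.05% (SD, n = 6) above the flanks in the first 50 bp to the left and 25.4 ± 4.43% in the first 50 bp to the right. Between 100 and 150 bp it stood at 19.5 ± 4.05% and 17.4 ± 3.39%, and between 200 and 250 bp at 13.8 ± 4.14% and 8.44 ± 3.19%. Between 350 and 400 bp it was down to 4.48 ± 2.27% and 6.52 ± 2.91%. The signal was thus still above the flanks beyond the edges of most peaks. Of the listed peaks, 75% were at most 379 bp wide in all. Inserts were about 150 to 300 bp long and the extension of fragments is not stated. How far the signal reaches past a peak therefore also depends on fragment length. Left and right follow the order of the columns in the table. Whether regions were turned by strand is not stated.

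The shoulders, 150 to 300 bp from the middle, stood above the flanks in 6 of 6 libraries over all sites. They were higher by 12.4, 12.3 and 15.8% at ZT06 and by 14.3, 6.70 and 8.44% at ZT22, in mice 28, 29 and 30. As a log2 ratio, shoulders to flanks averaged 0.16 ± 0.02 (SE, n = 6). The centre was in turn above the shoulders by 0.16 ± 0.01. The outer ring, from 300 to 1000 bp, was higher than the flanks by 0.05 ± 0.01, or by 2.01 to 4.67% per library. Each of these ratios was above 0 in 6 of 6 libraries (by the same exact test p = 0.031 for each, again the minimum). The adjusted p of each was 0.0391 in the family of 10 and 0.115 over all 44 tests. In log2, shoulders to flanks and centre to shoulders add up to centre to flanks, so they are not separate tests of the rise. Averaged over the outer ring, a rise of a few percent was thus shared by all the libraries. It was not present throughout the ring. The mean stood at 0.05% on the right from 750 to 800 bp and 0.06% on the left from 950 to 1000 bp, each above 0 in 3 of 6 libraries. On the right from 900 to 950 bp it stood at 4.16%, above 0 in 6 of 6.

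Position by position, limma was applied to the log2 signal relative to the library's flanks, over the 6 libraries and against 0, with time as a term. At all sites 45.8% of the positions were called at an adjusted p under 0.05, 45.2% as higher and 0.669%, or 2 positions, as lower. Around the middle the higher positions formed a stretch without a gap, from 600 bp on the left to 440 bp on the right. At an adjusted p under 0.01 the stretch ran from 590 to 420 bp. Without the ZT22 library of mouse 30 it reached only 380 bp on the left. For 1 time alone it ran from 350 bp on the left to 440 bp on the right at ZT06, and from 280 to 310 bp at ZT22. Higher positions were also called beyond the stretch, for instance from 910 to 950 bp on the right and at some positions in the left flank. Both lower positions lay close to the right end of the region, the nearer 1380 bp from the middle. In the top set 33.4% of the positions were called, all higher, and the stretch ran from 280 bp on the left to 410 bp on the right. On the right it reached only 210 bp at an adjusted p under 0.01, and 210 bp again without the ZT06 library of mouse 30 or the ZT22 library of mouse 28 or 30. It reached 230 bp without the ZT22 library of mouse 29. Against the right flanks only, the stretch over all sites reached 730 bp on the left. Neighbouring positions share fragments, and limma used 1 common variance for all positions. These counts are therefore not a number of findings, and the ends of the stretch give the extent of the rise only roughly.

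In the mean profiles, the highest position lay 30 bp left of the middle at ZT06 and 40 bp left at ZT22, and the lowest 1380 and 1050 bp to the right. The width of the rise at 50% of its height above the flanks, after a running mean over 11 positions, was 401, 381 and 463 bp at ZT06 and 390, 342 and 334 bp at ZT22 over all sites. The edges lay farther from the middle on the left than on the right in 6 of 6 libraries, at 220.4 ± 28.9 bp and 164.8 ± 24.2 bp (SD, n = 6). Widths at the top sites could not be read with the same confidence. They spread from 159.3 to 712 bp, and the widest, the ZT06 library of mouse 30, had its highest point 200 bp from the middle.

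**Figure D2:**
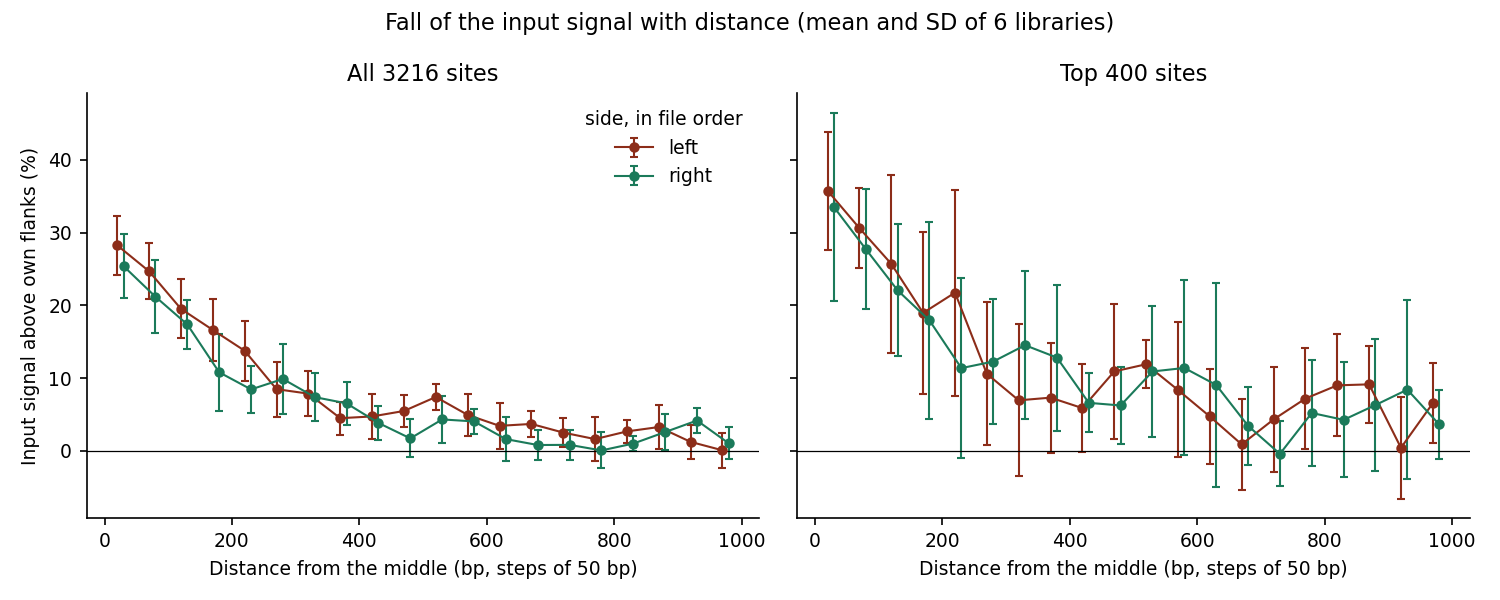
Input signal above the library's own flanks, in percent, in steps of 50 bp from the middle, separately for the left and the right side in file order. Points are means of 6 libraries and bars their SD. Over all sites the left side lies above the right side between 150 and 250 bp, at 13.8 against 8.44% in the step from 200 to 250 bp.

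At all sites the rise leaned to the left near the middle in most libraries. Farther out neither side was higher throughout. From 250 to 300 bp the mean of the 6 libraries was 8.48% above the flanks on the left and 9.88% on the right. It was 7.86 and 7.38% from 300 to 350 bp, and 4.48 and 6.52% from 350 to 400 bp. The highest position lay on the left in 6 of 6 libraries, 10 to 70 bp from the middle. The mean signal from 10 to 300 bp on the left was 3.81, 3.54 and 3.69 at ZT06 in mice 28, 29 and 30, against 3.65, 3.44 and 3.53 on the right. At ZT22 it was 3.73, 3.13 and 3.30 against 3.74, 3.10 and 3.18, so that the sides were level in mouse 28. The log2 ratio of left to right was 0.04 ± 0.01 (SE, n = 6) and above 0 in 5 of 6 libraries, which did not pass the test (exact sign-flip test, two-sided p = 0.0625, adjusted p 0.0694 in the family of 10). Over 10 to 150 bp only, it was 0.03 ± 0.01 and above 0 in all 6 (p = 0.031 by the same exact test). The left flank was itself above the right flank in 5 of 6 libraries, and after subtraction of the log2 ratio of the flanks the lean was 0.022 ± 0.010 (exact test, p = 0.09375). For the top set the ratio was 0.04 ± 0.02, above 0 in 4 of 6 libraries (exact test, p = 0.1875).

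The rise of the centre was somewhat larger at the top sites than over all sites. It was 37.8, 32.5 and 34.5% above the flanks at ZT06 and 39.1, 20.8 and 26.1% at ZT22, in mice 28, 29 and 30. In each library this exceeded the rise over all sites, by 0.08 ± 0.01 (SE, n = 6) on the log2 scale, with a range from 0.02 to 0.12 (exact sign-flip test, two-sided p = 0.031, adjusted p 0.125 over 4 measures). The smallest gain was again in the ZT22 library of mouse 29. With a centre of 50 bp to either side the difference was 0.08 ± 0.03 and no longer passed the unadjusted threshold (exact test, p = 0.0625). The shoulders did not follow in every library. The top sites exceeded all sites there in 4 of 6, by 0.05 ± 0.04 on the log2 scale (exact test, p = 0.344). The top sites belong to all sites by the names of the sets, and against the remaining sites the difference was 0.09 ± 0.02.

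Between the times, the rise of the input did not differ beyond the spread of the libraries. Over all sites the centre was above the flanks by 26.6 ± 2.81% at ZT06 and by 23.3 ± 4.68% at ZT22 (SD, n = 3 each). For the top set the values were 34.9 ± 2.68% and 28.7 ± 9.41%. The groups overlapped in both sets, because the ZT22 library of mouse 28 was as high as the ZT06 libraries. On the log2 scale ZT06 exceeded ZT22 by 0.04 ± 0.04 (SE) for all sites and by 0.07 ± 0.06 for the top set. Single libraries of the 2 times differed by -0.05 to 0.12 and by -0.07 to 0.19. In both sets p was 0.4 by an exact permutation test, two-sided, with an adjusted p of 0.80 over 12 tests, and 3 against 3 cannot give a p under 0.1. Without the ZT22 library of mouse 28 the differences were 0.07 ± 0.03 and 0.13 ± 0.04, and without that of mouse 29 they were 0.01 ± 0.04 and 0.03 ± 0.07. Without the ZT06 library of mouse 28 the first was 0.02 ± 0.04. With 3 libraries a group, no difference of any size could pass the threshold of 0.05 by this exact test.

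The breadth and the lean of the rise likewise overlapped between the times. For all sites the width was 415 ± 42.97 bp at ZT06 and 355 ± 30.2 bp at ZT22 (SD, n = 3 each), a difference of 59.9 ± 30.3 bp (SE). As ZT06 minus ZT22 on the log2 scale, shoulders to flanks differed by 0.05 ± 0.03, the outer ring by 0.02 ± 0.01, left to right by 0.03 ± 0.02 and centre to shoulders by -0.01 ± 0.02. By the exact two-sided permutation test, p was from 0.2 to 0.7 and adjusted p from 0.80 to 0.93. None could have passed, since 3 against 3 cannot give a p under 0.1. The library of mouse 28 at ZT22 lay among the ZT06 libraries in rise, shoulders and width. Without it the shoulders differed by 0.08 ± 0.02, with both remaining ZT22 libraries below all 3 ZT06 libraries (exact permutation test, p = 0.1, the smallest that 3 against 2 allow). That choice removes the highest of the ZT22 libraries. Without the ZT22 library of mouse 29, the lowest, the times still overlapped in the shoulders. Mouse 28 at ZT22, at 0.193 in log2 shoulders to flanks, was above mice 28 and 29 at ZT06, at 0.169 and 0.167.

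**Figure D3:**
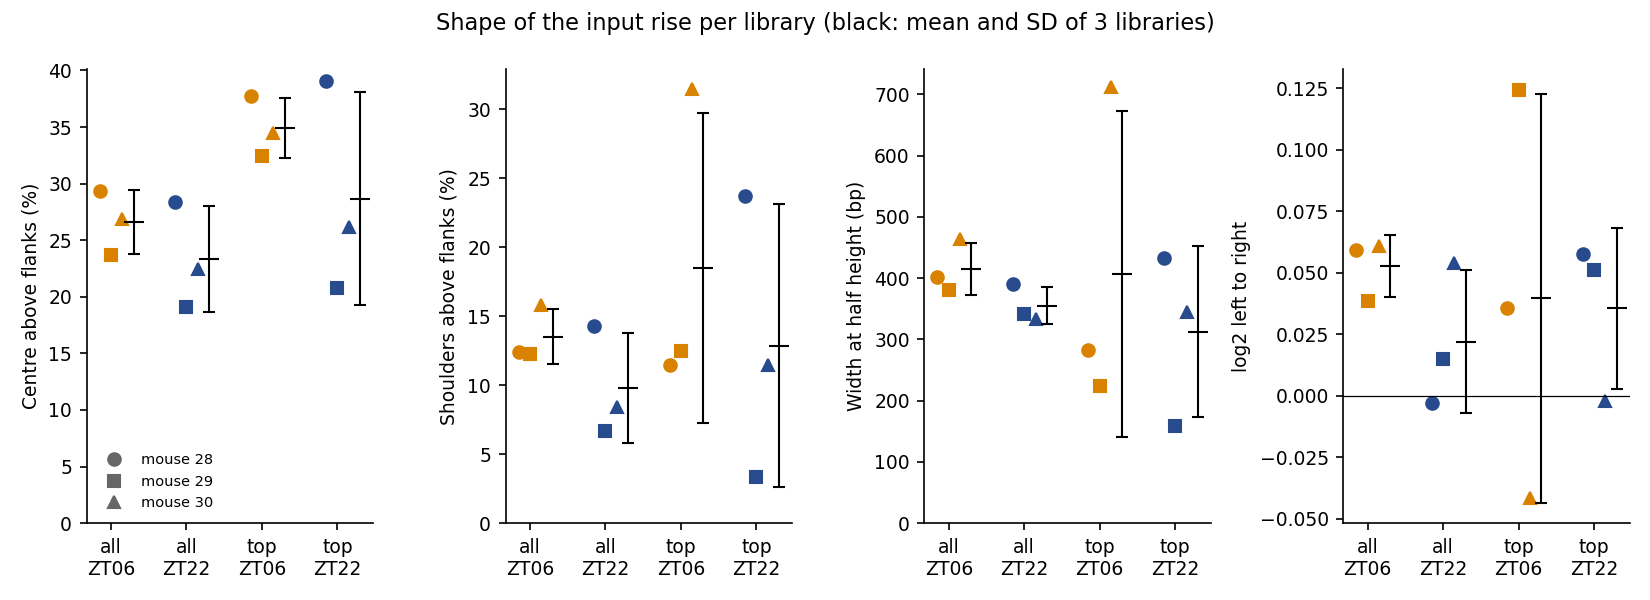
Centre and shoulders above the flanks (percent), width at 50% of the height (bp) and log2 ratio of the left to the right side for each input library, by set of sites and time. Symbols give the mouse number and black marks the mean and SD of 3 libraries. The times overlap in every panel over all sites, for instance with widths of 381 to 463 bp at ZT06 and 334 to 390 bp at ZT22.

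On the deposited scale the input tended to be higher at ZT06 along the whole region, and whether positions passed the test depended on the library of mouse 28 at ZT22. At all sites 99.7% of the positions had a higher mean at ZT06, with a median difference of 0.06 on the log2(signal + 1) scale, and of 0.08 for the top set. By limma no position passed in either set (0%). Unadjusted p-values under 0.05 were found at 12 positions for all sites and at 20 for the top set, all higher at ZT06. Without the ZT22 library of mouse 28, 75.3% of the positions for all sites and 11.7% for the top set were called, all higher at ZT06, with a median difference of 0.10 and 0.13. Neighbouring positions share fragments and limma used 1 common variance here too. A shift in the level of a whole library therefore counts at many positions, and these shares are not numbers of separate findings. Without the ZT22 library of mouse 29 the median differences shrank to 0.03 and 0.05, with 86.6% of the positions higher at ZT06 for all sites and none called in either set. There was no position with an unadjusted p under 0.05 for all sites then, and 8 for the top set. When each library was divided by its own flank mean, 0 positions were called in either set, and 0 also without the ZT22 library of mouse 28. With all libraries, 65.6 and 61.9% of the positions of the 2 sets then still had a higher mean at ZT06. Unadjusted, 16 and 6 positions were under 0.05 with all libraries, 16 and 5 of them higher at ZT06. Without the ZT22 library of mouse 28 there were 45 and 19, with 44 and 16 higher at ZT06. Because the scaling between libraries is not known, a level that is higher across the region cannot be told apart from scaling.

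**Figure D4:**
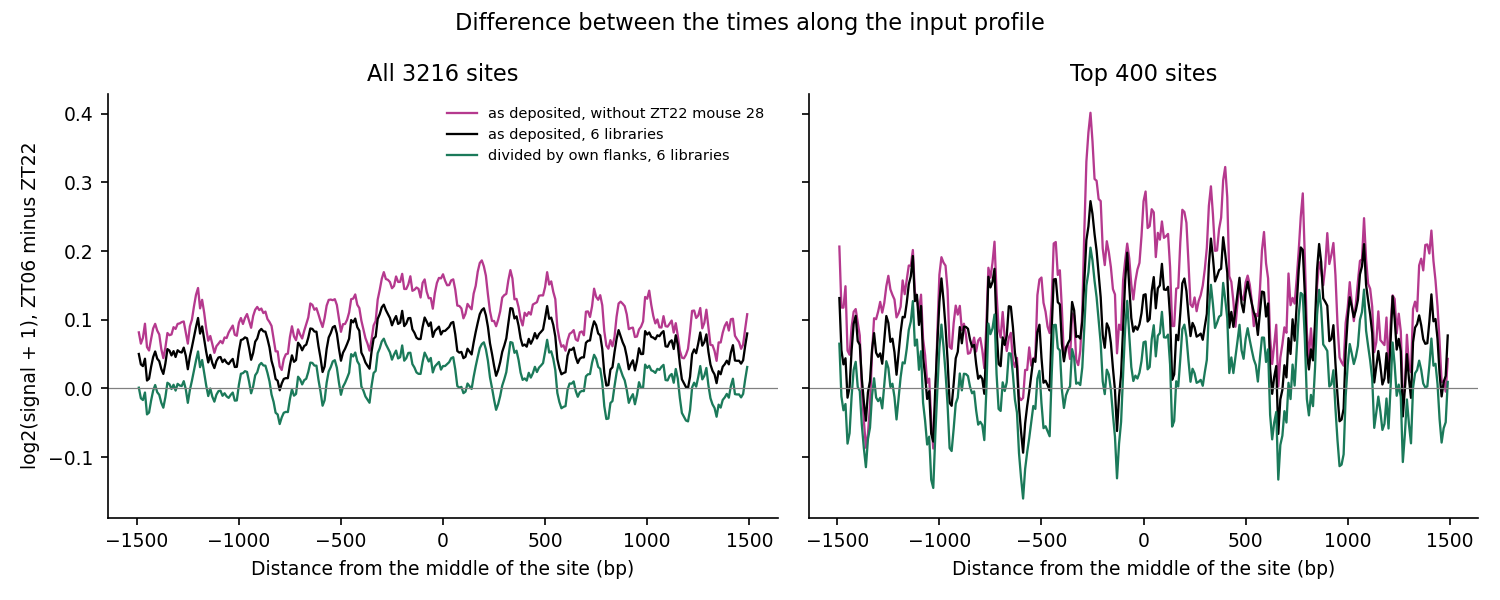
Difference of ZT06 minus ZT22 in log2(signal + 1) along the input profile, by limma, against the distance from the middle of the site. Black is the deposited scale with 6 libraries, purple the same without the ZT22 library of mouse 28, and green with each library divided by its own flanks. Over all sites black has a median of 0.06 and purple of 0.10, while green has a median of 0.01, with 65.6% of its positions above 0.

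Set against the CLK ChIP of the same livers, the input rise made up a smaller part of the ChIP peak at ZT06 than at ZT22, where the part varied widely between livers. Over all sites, the ChIP centre was 3.10, 3.05 and 3.31 times its own flanks at ZT06 in mice 28, 29 and 30. The excess of the input amounted to 14, 11.5 and 11.6% of that of the ChIP. At ZT22 the ChIP centre was above its flanks by 32.5, 20.2 and 74.8%, and the input rise amounted to 87.3, 94.9 and 30.04% of it. In the top set the input rise was 7.35 ± 0.95% of the ChIP rise at ZT06 and 42.1, 74.4 and 12.7% at ZT22. The shares at ZT06 and ZT22 do not overlap in either set. The log2 rise of the ChIP for all sites averaged 1.66 (ZT06) and 0.49 (ZT22), and that of the input 0.34 and 0.30. In mouse 29 at ZT22 the ChIP and the input were nearly equal at the centre relative to their flanks, 0.01 apart on the log2 scale over all sites.

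Width and lean of the input rise were set against those of the ChIP peak in the same way. Over all sites ChIP was 366 bp wide at ZT06 and input 415 bp, with the ChIP narrower in each of the 3 livers, with differences of -95.1 to -19.9 bp. The exact sign-flip test over 3 livers gave p = 0.25, its minimum. At ZT22 ChIP was 367 bp wide and input 355 bp, a difference of 11.9 ± 26.4 bp (SE), with the ChIP wider in 2 of 3 livers (exact test, p = 0.75). Over both times the difference was -18.5 ± 20.8 bp (SE, n = 6 livers; exact sign-flip test, p = 0.469). The log2 ratio of left to right was larger in the ChIP than in the input in 6 of 6 livers over all sites. The difference was 0.07 ± 0.02 (exact sign-flip test, two-sided p = 0.031, adjusted p 0.0625 over 6 tests). This ratio keeps the flank level on both sides, so it also grows with the height of a peak. Above its own flanks, the input stood on average at 18.6% on the left and 15.5% on the right, and the ChIP at 92.9 and 77.7%. Whether the lean differs apart from the height was not tested. Over 10 to 150 bp only, the difference in the log2 ratio was 0.05 ± 0.03 (exact test, p = 0.1875). For the top set it was 0.08 ± 0.04, in 4 of 6 livers (exact test, p = 0.125).

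**Figure D5:**
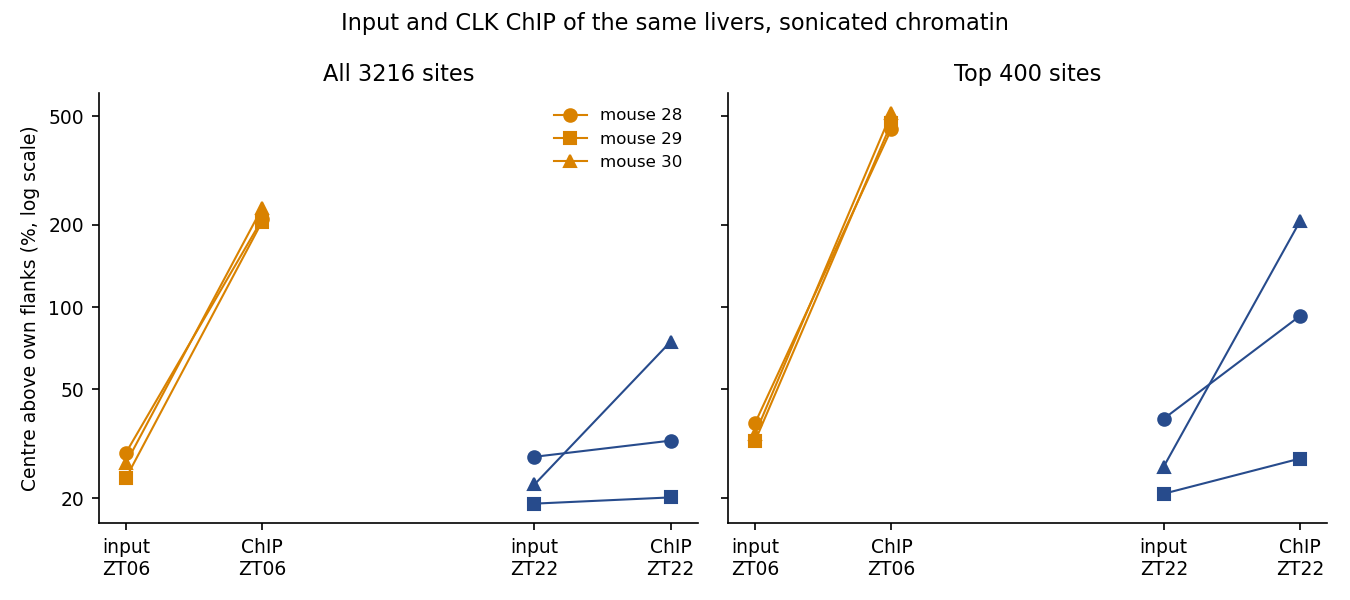
Centre above the library's own flanks, in percent on a log axis, for the input and the CLK ChIP of the same liver, joined by a line, for both sets of sites. Colour gives the time and symbol the mouse number. The input lies between 19.1 and 39.1% in every library, while the ChIP reaches 513% at ZT06 and goes down to 20.2% at ZT22.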

How the data were processed

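The authors deposited mean signal profiles, 1 row per library and set of sites, and a list of sites with positions in bp. The build mm9 and the tools CASAVA 1.7 and Bowtie are named in the submitters' processing notes. Extension, filtering and scaling of fragments are not given in the sources used here. Of 52 profile rows, 16 match no sample and were not used. From the deposited signal, log2 ratios within a library were computed (Python 3.11.15, numpy 2.4.6), which no scaling factor per library changes, and compared by exact permutation and sign-flip tests. limma 3.58.1 was applied to log2(signal + 1) between the times, and to log2 signal over the flank mean for the extent. There was no block for the mouse number, and Benjamini-Hochberg adjustment with a threshold of 0.05 was used. Over both sets, same-numbered libraries correlated by -0.19 to 0.13 in their deviations and differently numbered ones by -0.21 to 0.21. The scripts were tested on simulated data. Alternatives covered windows, flanks, running mean, pseudocount, scaling, block and libraries left out. Members, windows and tests were chosen with earlier results of these data known. Positions named are the middle, the highest and lowest, and the ends of called stretches. Beyond the mouse numbers nothing says that libraries of a group are separate animals, so p-values measure only the spread between these libraries, which may be technical.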

Additional observations from a re-analysis of the deposited data

How the results depend on the processing

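The rise of the input, log2 centre to flanks, ranged from 0.31 to 0.33 (all sites) and from 0.38 to 0.42 (top set) when each library was left out in turn, ChIP minus input from 0.63 to 0.90 and from 1.19 to 1.61, and the top set against all sites from 0.067 to 0.087. With 5 libraries the smallest exact sign-flip p is 0.0625, so none of these could pass. The share of positions called between the times ranged from 0 to 75.3% and from 0 to 11.7%, and was 55.5% and 5.35% with both libraries of mouse 28 left out, an alternative chosen after seeing the data, as was the flank-scaled one without the ZT22 library of mouse 28.

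A centre of 50 bp gave 0.078 (exact sign-flip p = 0.0625) for the top set against all sites, and asymmetry over 10 to 150 bp gave 0.033 for all sites, which then passed unadjusted. Signs turned only in measures whose main value did not pass, and the cause was not tested. Between the times, centre to shoulders in the top set was -0.017, -0.031 and -0.067 with a centre of 50 bp, of 200 bp and without mouse 28, and asymmetry over 10 to 150 bp was -0.057. For ChIP minus input, the width without a running mean was -90.8 bp (ZT22, all sites), 69.97 bp (6 livers, top set) and 88.5 bp (ZT06, top set), and with 21 positions -4.28 bp (ZT22, top set). Asymmetry at ZT22 in the top set was -0.037 over 10 to 150 bp and -0.033 minus that of the flanks. The width of the top set minus all sites was 50.4 bp with 21 positions.

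Leaving out each library, signs turned between the times for centre to shoulders (-0.031 to 0.0038 for all sites, -0.056 to 0.080 for the top set) and, in the top set, for shoulders (-0.0070 to 0.14), outer ring (-0.030 to 0.053), width (-58.4 to 185.7 bp) and asymmetry (-0.038 to 0.045). They also turned for ChIP minus input in width at ZT22 for all sites (-8.55 to 36.6 bp) and in the top set for 6 livers (-41.2 to 67.2 bp), ZT06 (-127.9 to 112.4 bp) and ZT22 (-35.7 to 91.4 bp). The top set minus all sites ranged from -80.8 to 5.59 bp in width and from -0.017 to 0.021 in asymmetry.

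With the mouse number as a replicate block, the rise differed between the times by 0.04 ± 0.01 (SE, exact sign-flip p = 0.25) for all sites. For the top set it differed by 0.07 ± 0.04 (exact sign-flip p = 0.5). With 3 pairs this test cannot give a p under 0.25, so neither could pass. With the block, limma called 0% of positions in both sets. Unadjusted p-values under 0.05 were then found at 40.8% of positions for all sites and 14.05% for the top set, against 4.01% and 6.69% without the block, and the smallest adjusted p for all sites was 0.060 against 0.464. Of 6 libraries, 4 correlated best with their own number for all sites and 1 in the top set. Libraries of the same number correlated by -0.00017 to 0.13 for all sites and by -0.19 to 0.12 in the top set. For different numbers the ranges were -0.20 to 0.085 and -0.21 to 0.21. These values do not settle whether the numbers are pairs. They were not taken as pairs because whole livers were collected at each time. Depth limits the top set, where counting error alone is up to 4.88% at 1 position.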

Other observations

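The order of the mouse numbers by the size of the input rise was the same at both times and in both sets of sites: 28 highest, then 30, then 29. Over all sites the rise was 29.3, 26.8 and 23.7% in this order at ZT06 and 28.4, 22.5 and 19.1% at ZT22. Within a number, the rise over all sites was higher at ZT06 in 3 of 3, and at the top sites in 2 of 3, with mouse 28 the other way. This order was noticed in the data and was not tested.

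The fall of the input with distance was not even. Between 500 and 550 bp from the middle the signal over all sites stood 7.40 ± 1.80% (SD, n = 6) above the flanks on the left and 4.31 ± 3.28% on the right, above 0 in 6 of 6 libraries on each side. Between 450 and 500 bp it was 5.47 ± 2.17% and 1.703 ± 2.61%. At the top sites the values from 500 to 550 bp were 11.9 ± 3.27% and 10.9 ± 8.98%, also above 0 in 6 of 6. This is not particular to that step. Over all sites the right side from 900 to 950 bp stood at 4.16 ± 1.74%, also above 0 in 6 of 6. At the top sites the left side from 850 to 900 bp stood at 9.14 ± 5.35%, again in 6 of 6. The unevenness was not tested.

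The flanks of different libraries had little shape in common. Across the 100 flank positions over all sites, the correlation between 2 input libraries ranged from -0.32 to 0.28, with a median of 0.04 over 15 pairs. Over the whole profile it ranged from 0.82 to 0.88. Positions are not independent, and the libraries share the same sites.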
